A study of Mus musculus with 12 samples.

Results

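Transcripts of 8 genes of fatty acid oxidation were examined in mouse liver: Ppara, the nuclear receptor that controls the program, and 7 genes usually counted among its targets, Cpt1a, Cpt2, Ehhadh, Acadm, Hadha, Pdk4 and Fgf21. They were found by their gene names and are 8 of the 21936 genes in the table. The mice were males labelled C57BL/6, which the study's methods give as C57BL/6J, 6 weeks old on arrival, and every group analysed here had been given CCl4, a hepatotoxin that leads to fibrosis, at 1 mL/kg intraperitoneally 2 times per week for 8 weeks. Mice of the liver fibrosis group (LFG) were killed when CCl4 ended. Those of the regression group (REG) went on to 4 weeks of tail vein injections of 200 µL PBS, 2 each week, and those of the hADMSCs-Exo group received 250 µg of exosomes from human adipose mesenchymal stem cells in that volume, by that route and at those times. Each group had 3 RNA-seq libraries, 9 of the 12 samples in the series, and the 3 samples that had received the cells themselves were not analysed here. Livers of LFG were thus taken 4 weeks earlier than the others, so time after CCl4, age and injection cannot be told apart in a comparison with LFG, and livers without CCl4 were not analysed here. The columns taken as hADMSCs-Exo are headed MSC_E in the table. The labels number the samples of a group without saying that each was a separate mouse, so p-values measure the spread between these samples. The feeding state and the hour of tissue collection are not given in the sources used here.

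PPAR-alpha is a receptor for fatty acids and their derivatives that binds DNA together with RXR and switches on the genes by which the liver burns fat during fasting. Long-chain fatty acids enter mitochondria as carnitine esters, made by CPT1A at the outer membrane and undone by CPT2 at the inner one, and are then shortened in cycles by acyl-CoA dehydrogenases such as ACADM and by the trifunctional protein, of which HADHA is a subunit. Peroxisomes shorten very long and dicarboxylic acids with EHHADH, PDK4 shuts pyruvate out of the citric acid cycle while fat is burned, and FGF21 is a hormone that the fasting liver secretes.

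Promoter sequences were read to show what the 8 genes share before their transcript levels are given. All 8 matched the RefSeq promoter table (GRCm38.p6, 250 bases before to 50 bases after the start). Both strands were searched for AGGNCANAGGNCA, a direct repeat of the kind that PPAR-alpha and RXR bind, for AGGTCA, 1 unit of such a repeat, and for the E-box CACGTG. The direct repeat was in 0 of the 8 windows, against 0.381% of all 32851 promoters. The single unit was in 2 of the 8, Cpt1a and Acadm, against 16.3% of all promoters, and the E-box was in 1, Fgf21, against 7.15%. A single unit can lie inside a direct repeat, but neither of these did within its window. The match of Acadm lies at the upstream edge, so a partner unit further upstream could not be seen. These counts describe the letters of short windows and do not locate sites further away or inside the genes. The 250 bases upstream are given for the 3 genes with a match, where capitals mark the match and TGACCT is AGGTCA read on the other strand, and for Pdk4, the gene whose level varied most, which had none. RefSeq starts need not coincide with the gene starts of the table.
Cpt1a, chr19:3323051-3323300, plus strand: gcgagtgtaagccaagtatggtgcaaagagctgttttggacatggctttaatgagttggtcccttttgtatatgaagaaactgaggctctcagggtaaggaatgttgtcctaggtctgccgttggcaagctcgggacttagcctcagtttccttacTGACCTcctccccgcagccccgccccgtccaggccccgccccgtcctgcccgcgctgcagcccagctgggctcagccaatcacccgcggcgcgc
Acadm, chr3:153944644-153944893, minus strand: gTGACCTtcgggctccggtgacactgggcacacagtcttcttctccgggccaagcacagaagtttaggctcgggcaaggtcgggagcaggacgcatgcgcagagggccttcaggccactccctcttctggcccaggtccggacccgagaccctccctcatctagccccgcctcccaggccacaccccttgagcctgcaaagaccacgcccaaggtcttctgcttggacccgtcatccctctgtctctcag
Fgf21, chr7:45615491-45615740, minus strand: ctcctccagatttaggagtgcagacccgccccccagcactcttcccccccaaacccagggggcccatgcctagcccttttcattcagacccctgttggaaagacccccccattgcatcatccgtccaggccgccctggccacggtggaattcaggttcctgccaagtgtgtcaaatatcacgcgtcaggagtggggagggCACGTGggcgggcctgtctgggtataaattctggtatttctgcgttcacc
Pdk4, chr6:5496279-5496528, minus strand: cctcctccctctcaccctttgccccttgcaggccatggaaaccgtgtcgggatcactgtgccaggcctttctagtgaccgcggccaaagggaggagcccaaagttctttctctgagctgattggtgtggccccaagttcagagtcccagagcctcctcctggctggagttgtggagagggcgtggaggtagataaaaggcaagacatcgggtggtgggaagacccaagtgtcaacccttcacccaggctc
Counted from the start, the match of Cpt1a lay at -94 to -89 and that of Acadm at -249 to -244, both on the strand opposite to the gene, and the E-box of Fgf21 at -50 to -45.

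By length-scaled level (FPKM, median of 9 libraries) the order was Acadm 70.7, Ehhadh 62.6, Cpt1a 47.8, Cpt2 45.7, Hadha 39.2, Ppara 13.5, Pdk4 0.839 and Fgf21 0.373. Within libraries, Acadm stood above Ehhadh in 5 of 9, Ehhadh above Cpt1a in 6 and Cpt1a above Cpt2 in 3, so these neighbours were not separated. Cpt2 was above Hadha, Hadha above Ppara and Ppara above Pdk4 in 9 of 9 libraries, and Pdk4 above Fgf21 in 6. All further levels are CPM, counts divided by the TMM-scaled library total, which serve to compare one gene across libraries.

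The 9 libraries held 13837445 to 19840917 counts, and LFG 3 stood apart from LFG 1 and LFG 2. Its summed level of 12 stellate cell and myofibroblast markers was 72.2 CPM against 1478 in LFG 1 and 990.2 in LFG 2, whereas REG had 226.7 to 383.5 and hADMSCs-Exo 89.5 to 248.1. Its 9 pericentral markers summed to 17460 CPM against 1573 and 3680, its 10 macrophage markers to 174 against 1720 and 1291, and its scaling factor was 0.808 against 1.38 and 1.09. All 10 hepatocyte markers were detected, at a summed 79610 CPM in LFG 1 and 121700 to 169500 in the other libraries. Of 6 adipocyte markers, Lep and Retn had 0 counts in all libraries, and the sum was 8.002, 2.24 and 8.85 CPM in LFG 1, 2 and 3, at most 0.862 in REG and at most 0.710 in hADMSCs-Exo. In whole liver, fewer cells of a type and less RNA per cell cannot be told apart.

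**Figure D1:**
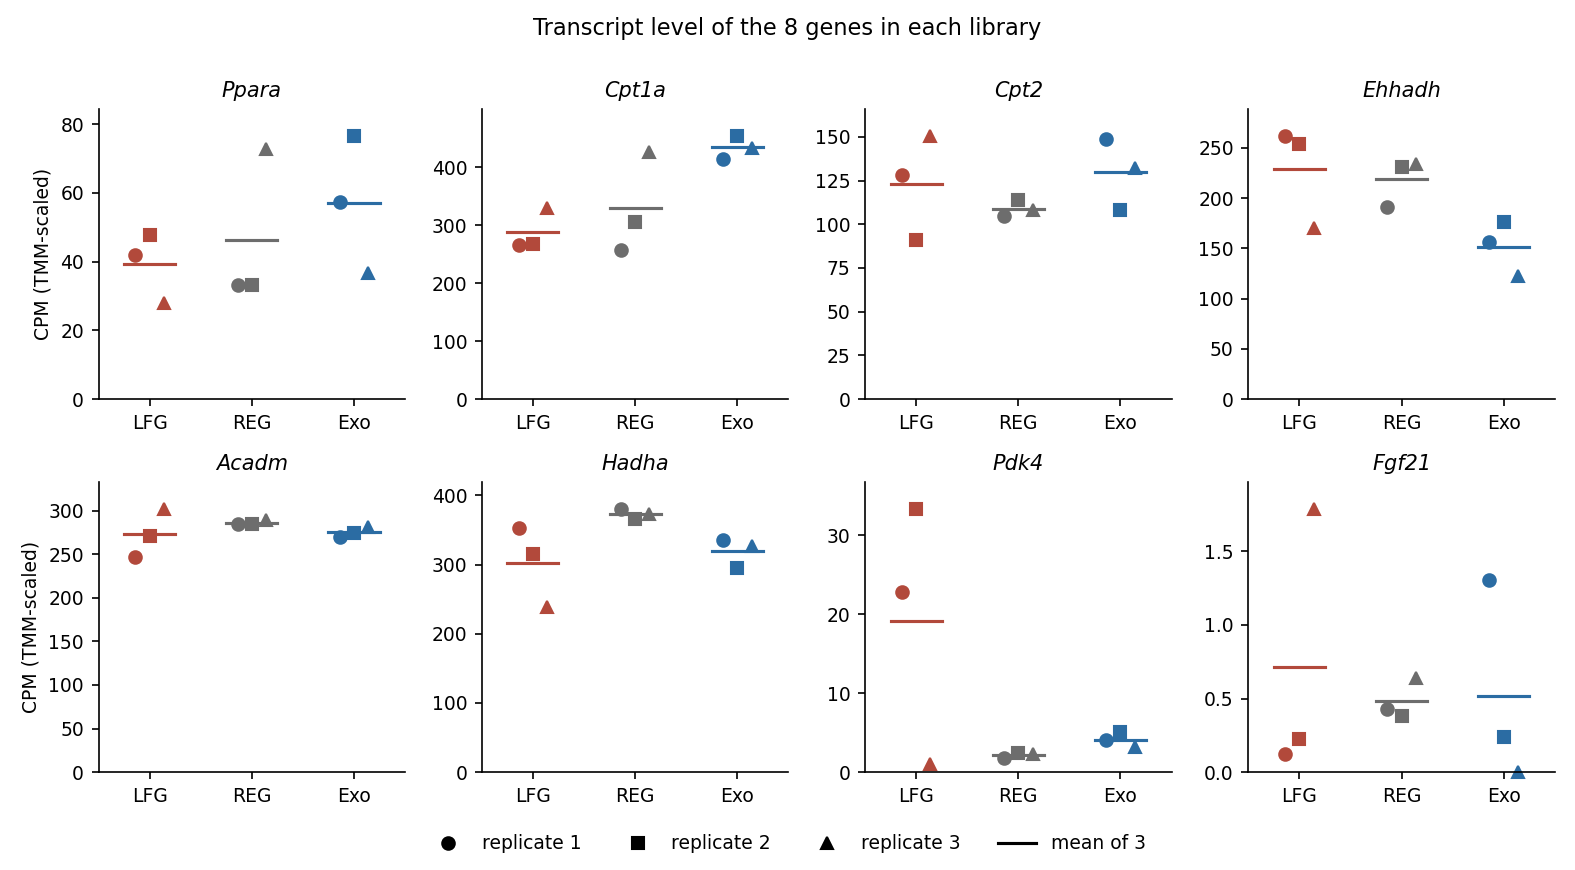
Level of each gene in CPM (vertical axis from 0) in the 3 libraries of LFG, REG and hADMSCs-Exo (Exo); marker shapes give the replicate number and bars the mean of 3. Cpt1a is above 415 CPM in each hADMSCs-Exo library, and Pdk4 is above 22 CPM only in LFG 1 and LFG 2.

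Ppara (ENSMUSG00000022383, GRCm38 chromosome 15, 85734983 to 85802819, plus strand) encodes the receptor itself. It had 42.0, 47.7 and 28.1 CPM in LFG 1, 2 and 3, 33.3, 33.2 and 72.7 in REG, and 57.5, 76.6 and 36.8 in hADMSCs-Exo. REG 3 was more than double REG 1 and REG 2 and sat among the hADMSCs-Exo libraries, while hADMSCs-Exo 3 sat near REG 1 and REG 2, so all groups overlapped. The SD of log2 CPM within a group was 0.40 in LFG, 0.65 in REG and 0.53 in hADMSCs-Exo. Its nearest patterns over the 9 libraries, by root mean square difference of centred log2 CPM, were Klf12 (0.224) and Abca6 (0.228), against 0.486 for the variation of Ppara itself.

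Of the carnitine shuttle, Cpt1a (ENSMUSG00000024900, chromosome 19, 3322334 to 3385733, plus strand) makes the acylcarnitines and is the step that malonyl-CoA inhibits. Its level was 265.5, 268 and 330.1 CPM in LFG 1, 2 and 3, 256.5, 306 and 426 in REG, and 415, 454 and 434 in hADMSCs-Exo. The hADMSCs-Exo libraries were the most alike, with a coefficient of variation of 4.52% against 26.4% in REG, and REG 3 alone reached their range. Cpt2 (ENSMUSG00000028607, chromosome 4, 107903981 to 107923610, minus strand), which releases the acyl group inside the mitochondrion, had 128, 90.9 and 151 CPM in LFG, 105, 114 and 108 in REG, and 148.5, 108 and 132 in hADMSCs-Exo. Here the REG libraries were the most alike and the groups overlapped throughout. The nearest patterns were Zfyve9 (0.128) and Met (0.131) for Cpt1a and Nop9 (0.0753) and Thumpd3 (0.0872) for Cpt2.

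Within mitochondrial oxidation, Acadm (ENSMUSG00000062908, chromosome 3, 153922357 to 153944632, minus strand), the medium-chain dehydrogenase, had 247, 271 and 302 CPM in LFG, 284.5, 284 and 289 in REG, and 269.6, 275 and 281 in hADMSCs-Exo. Its highest library was 1.23 times its lowest, and its SD over the 9 libraries, 0.082 on the log2 scale, was undercut by 0.118% of the 12760 genes that passed the filter over all 9 libraries, whose median SD was 0.403. Hadha (ENSMUSG00000025745, chromosome 5, 30118304 to 30155162, minus strand), which carries the hydratase and the long-chain dehydrogenase steps, had 353, 315 and 239 CPM in LFG, 381, 366 and 373 in REG, and 335.5, 295 and 327 in hADMSCs-Exo. All REG libraries lay above all others, and LFG 3 was the lowest. Hadha shares 75 exon bases with Garem2 on the other strand, and the use of strand in counting is not given in the sources used here. Flii (0.0544) and Ociad1 (0.0559) were nearest to Acadm, whose own variation was 0.0771, and Eif6 (0.071) and Ints11 (0.0801) to Hadha.

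The peroxisomal bifunctional enzyme gene Ehhadh (ENSMUSG00000022853, chromosome 16, 21761287 to 21787807, minus strand) had 262, 254 and 169.9 CPM in LFG, 191.5, 230.5 and 234 in REG, and 157, 176 and 122 in hADMSCs-Exo. The hADMSCs-Exo libraries were the lowest of all except that LFG 3 fell between them. Mid2 (0.159) and Snx24 (0.162) had the nearest patterns.

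Pdk4 (ENSMUSG00000019577, chromosome 6, 5483351 to 5496309, minus strand), the kinase that inactivates pyruvate dehydrogenase, had 22.8, 33.4 and 1.07 CPM in LFG 1, 2 and 3, 1.85, 2.47 and 2.28 in REG, and 4.08, 5.06 and 3.15 in hADMSCs-Exo. LFG 1 and LFG 2 stood far above the other 7 libraries, and LFG 3 was the lowest of all. This split was larger than counting error, since the 542 counts of LFG 1 and the 12 of LFG 3 give exact 95% Poisson intervals of 20.9 to 24.8 and 0.554 to 1.87 CPM, which cover counting error only. With an SD of 1.61 on the log2 scale, Pdk4 varied more than 98.4% of genes. Mpp2 (0.541) and Ehf (0.611) were nearest in pattern, against 1.52 for Pdk4 itself.

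Fgf21 (ENSMUSG00000030827, chromosome 7, 45613886 to 45615490, minus strand) was close to the limit of detection. Its counts were 3, 4 and 20 in LFG, 7, 7 and 12 in REG, and 22, 4 and 0 in hADMSCs-Exo, or 0.126, 0.224 and 1.79 CPM, 0.431, 0.384 and 0.637 CPM, and 1.302, 0.241 and 0 CPM. The 0 counts of hADMSCs-Exo 3, with 3 counts taken as the limit, allow a level of up to 0.189 CPM. LFG 3 and hADMSCs-Exo 1 were high, the other libraries of their groups were low, and the gene did not pass the filter on low counts in any pair of groups. Without that filter the 95% interval of the log2 fold change was -2.09 to 2.27 for hADMSCs-Exo against REG, -3.61 to 2.90 against LFG and -2.75 to 1.94 for REG against LFG. A change of several fold in either direction lay within these intervals. The libraries of a group also differed beyond counting error, since the exact 95% Poisson interval was 0.0261 to 0.369 CPM in LFG 1 and 1.09 to 2.76 CPM in LFG 3. Its nearest patterns were Bhlhe41 (0.668) and Csad (0.704), against 1.18 for Fgf21 itself.

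**Figure D2:**
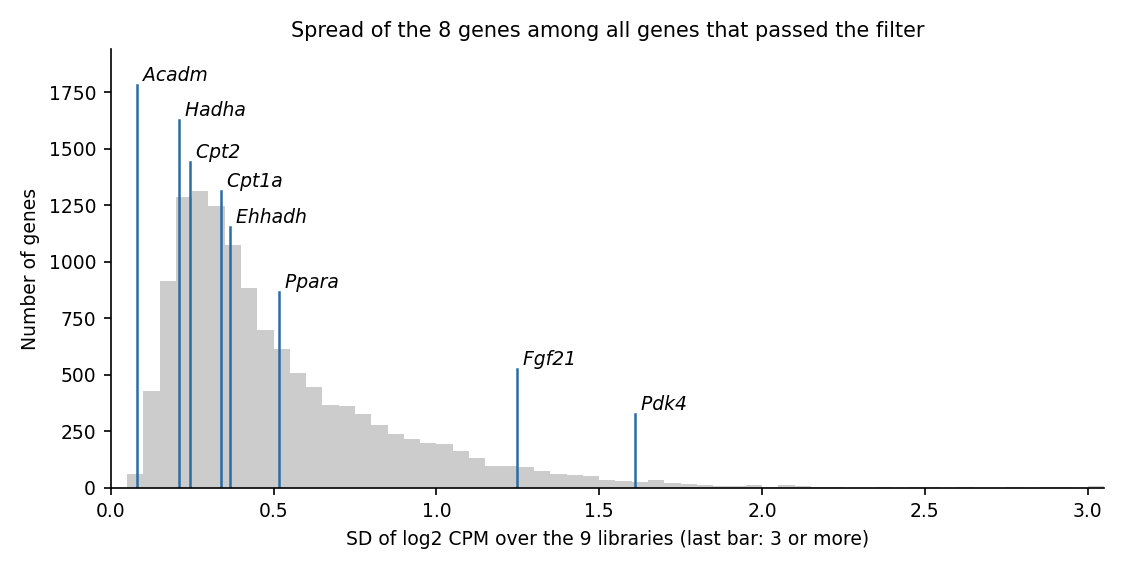
Histogram of the SD of log2 CPM over the 9 libraries for the 12760 genes that passed the filter (vertical axis, number of genes), with the 8 genes as lines. Acadm, at 0.082, lies at the left edge, and Pdk4, at 1.61, in the right tail.

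The effect of exosomes was addressed by hADMSCs-Exo against REG, livers of the same time and injection schedule. Ehhadh was lower and Pdk4 was higher after hADMSCs-Exo, each in 3 of 3 libraries, Cpt1a was higher in mean but not in every library, and Acadm was level. Ehhadh averaged 152 ± 27.5 CPM in hADMSCs-Exo and 219 ± 23.5 in REG (SD, n = 3), and Pdk4 4.10 ± 0.955 and 2.20 ± 0.320. Ehhadh had a log2 fold change of -0.53 (SE 0.17, 95% interval -0.91 to -0.145), or 0.694 of the REG level, with an unadjusted p of 0.0128. Its adjusted p was 0.409 (quasi-likelihood test of edgeR, adjusted over all genes by Benjamini and Hochberg's method). Pdk4 had 0.89 (SE 0.28, interval 0.24 to 1.54), or 1.86-fold, with an unadjusted p of 0.0130 and an adjusted p of 0.409 by edgeR. Without hADMSCs-Exo 2 its unadjusted p was 0.0551 by edgeR, and over all fits it ran from 0.0101 to 0.320.

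Cpt1a averaged 434 ± 19.6 CPM in hADMSCs-Exo and 329.5 ± 87.1 in REG (SD, n = 3), a log2 fold change of 0.40 (interval -0.045 to 0.84, adjusted p = 0.533 by edgeR) that was 0.62 without REG 3 and 0.256 without REG 1. Its unadjusted p was 0.0723 by edgeR, 0.0301 by limma voom, 0.0451 with the replicate number as a block, 0.00606 without REG 3 and 0.225 without REG 1. Ppara, the receptor, had 0.29 (interval -0.53 to 1.12, adjusted p = 0.807 by edgeR). Its value hung on single libraries, at 0.77 without REG 3, where its unadjusted p was 0.0325, and 0.019 without hADMSCs-Exo 2. Cpt2 had 0.25 (interval -0.077 to 0.58), Hadha -0.23 (interval -0.52 to 0.067) and Acadm -0.059 (interval -0.33 to 0.22). The interval of Acadm was the narrowest of the 7.

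Of the 7 genes tested, 0 passed the thresholds used here, a log2 fold change of 1 or more in either direction at an adjusted p under 0.05, by edgeR, DESeq2 or limma voom, where 0.00811% of all 12337 genes tested passed by edgeR, 0.543% by DESeq2 and 0.0243% by limma voom. An unadjusted p under 0.05 was reached by 2 of 7 against 10.0% of all genes. The groups did not overlap for 4 of 7, Pdk4 being higher and Ehhadh, Acadm and Hadha lower, against 15.5% of all genes. Adjusted p over all fits ran from 0.213 to 1.00 for Ehhadh and from 0.286 to 1.00 for Pdk4. The median of the 7 was 0.25 against 0.008 for all genes.

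Beside these values, marker lists of other states and cell types were measured in the same libraries. Of 11 stellate cell and myofibroblast markers tested, 10 were lower in hADMSCs-Exo than in REG (median log2 fold change -0.92, 6 at an unadjusted p under 0.05). All 6 glucocorticoid-induced genes were higher (median 0.92, 2 at p under 0.05), from 303 to 437 CPM summed in REG and 300.2, 817 and 1385 in hADMSCs-Exo 1, 2 and 3. Of that sum, Lcn2 alone gave 55.5, 240 and 908.5 CPM in hADMSCs-Exo 1, 2 and 3, and 118 to 168 in REG. Of 8 genes induced by insulin and feeding, 7 were lower (median -0.88, 5 at p under 0.05), with sums of 5254 to 14220 CPM in REG and 2720 to 5708 in hADMSCs-Exo. Of 6 genes of fasting gluconeogenesis, 5 were higher (median 0.74, 0 at p under 0.05), with sums of 2506 to 3791 CPM in REG and 2142 to 7148 in hADMSCs-Exo. Of 8 pericentral markers, 7 were higher (median 0.34, 4 at p under 0.05). Of 12 clock genes, 4 had a p under 0.05, Arntl and Cry1 higher and Nr1d1 and Dbp lower. All 7 markers of sinusoidal endothelium were lower (median -0.58, 0 at p under 0.05), 7 of 9 periportal markers were lower (median -0.107, 0 at p under 0.05) and 8 of 10 lymphocyte markers were higher (median 0.54, 1 at p under 0.05). Their part in the values of Ehhadh, Pdk4 and Cpt1a was not tested.

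Whether the exosome-treated livers differed from livers at the end of CCl4 was addressed by hADMSCs-Exo against LFG. Cpt1a was higher in hADMSCs-Exo, where its lowest library (415 CPM) was above the highest of LFG (330.1 CPM), Ehhadh and Pdk4 were lower in mean, and Acadm, Cpt2 and Hadha were level. Cpt1a averaged 434 ± 19.6 CPM in hADMSCs-Exo and 288 ± 36.5 in LFG (SD, n = 3). Its log2 fold change was 0.59 (SE 0.21, interval 0.089 to 1.08), or 1.501-fold, with an unadjusted p of 0.0271 and an adjusted p of 0.805 by edgeR. Ehhadh had -0.60 (SE 0.27, interval -1.23 to 0.029), Pdk4 -2.24 (SE 0.98, interval -4.56 to 0.084) and Ppara 0.53 (SE 0.33, interval -0.25 to 1.302), with adjusted p of 0.805, 0.805 and 0.840 by edgeR. Cpt2 had 0.068 (interval -0.52 to 0.66), Hadha 0.068 (interval -0.49 to 0.63) and Acadm 0.002 (interval -0.46 to 0.47). Without LFG 3, Ppara, Cpt2, Hadha and Acadm were at 0.355, 0.257, -0.052 and 0.101, with intervals that contained 0.

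By edgeR 0 of the 7 passed the thresholds, where the share of all 12489 genes was 0.0%, and DESeq2 and limma voom passed 0 as well, against 0.48% and 0.00801% of all genes. An unadjusted p under 0.05 was reached by 1 of 7, Cpt1a, against 5.98% of all genes, and by 3 of 7 with DESeq2, against 8.45%, and with limma voom, against 28.1%. Cpt1a was also the 1 gene of 7 whose groups did not overlap, against 12.3% of all genes. Same-numbered libraries of these groups were treated as pairs because of correlations in these same data. The labels give no pairing beyond the shared number. With the replicate number as a block, 3 of 7 reached an unadjusted p under 0.05 by edgeR, and the share of all genes in that fit is not given here. The 3 were Ppara (log2 fold change 0.50), Ehhadh (-0.59) and Cpt1a (0.59), each with an adjusted p of 0.823 by edgeR. Pdk4 was at -1.54 in that fit, with an adjusted p of 0.834 by edgeR.

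Without LFG 3, Pdk4 passed the thresholds, with a log2 fold change of -2.76 (SE 0.26, interval -3.38 to -2.15) and an adjusted p of 0.00952 by edgeR, as 5.97% of all genes then did. Over all fits its adjusted p ran from 0.00952 to 1.00. Ehhadh (-0.76) and Cpt1a (0.715) missed the threshold, with adjusted p of 0.0700 and 0.0741 by edgeR, in ranges over all fits of 0.0700 to 1.00 and 0.0723 to 1.00. The call of Pdk4 rests on which LFG libraries are used: LFG 3, at 1.07 CPM, is below all hADMSCs-Exo libraries, and LFG 1 and LFG 2 are above them all. Among markers, all 11 stellate cell and myofibroblast genes tested were lower in hADMSCs-Exo than in LFG (median -1.65, 6 at p under 0.05), as were 5 of 6 genes of fasting gluconeogenesis (median -0.72, 1 at p under 0.05) and 4 of 6 glucocorticoid-induced genes (0 at p under 0.05). All 6 cholangiocyte markers were lower (median -0.98, 0 at p under 0.05), 9 of 10 lymphocyte markers were higher (median 1.03, 2 at p under 0.05) and 8 of 9 periportal markers were higher (median 0.31, 2 at p under 0.05). Without LFG 3, whose stellate cell sum was below every hADMSCs-Exo library and those of LFG 1 and LFG 2 above them all, the stellate cell median was -2.06 (11 of 11 lower, 10 at p under 0.05, where 28.5% of all genes were), the cholangiocyte median -1.38 (6 of 6 lower, 5 at p under 0.05) and the gluconeogenesis median -0.88 (5 of 6 lower, 3 at p under 0.05). The glucocorticoid median was then -0.233 (5 of 6 lower), the lymphocyte median 0.625 (9 of 10 higher) and the periportal median 0.56 (7 of 9 higher), while all 9 pericentral markers tested were higher (median 2.12, 6 at p under 0.05), against 6 of 8 (median 0.57, 0 at p under 0.05) with LFG 3. Macrophage markers were then lower in 8 of 10 (median -0.66, 7 at p under 0.05) and hepatocyte markers higher in 9 of 10 (median 0.61, 3 at p under 0.05), where with LFG 3 their medians were -0.154 and -0.028. Their part in the values of Pdk4, Cpt1a and Ehhadh was not tested.

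**Figure D3:**
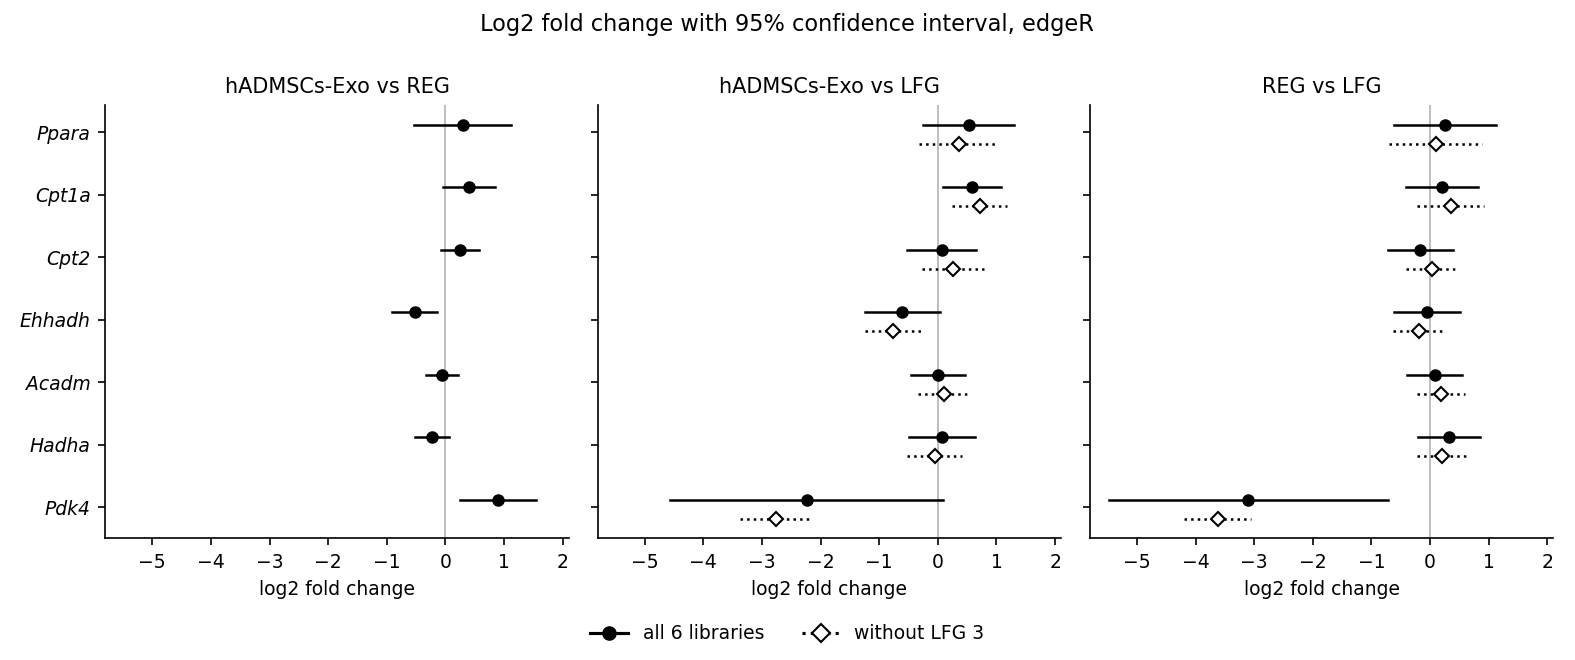
Log2 fold change (horizontal axis) of the 7 tested genes in each comparison, with 95% confidence intervals from edgeR; filled circles use all 6 libraries and open diamonds leave out LFG 3. Pdk4 moves from -2.24 to -2.76 and from -3.10 to -3.62 when LFG 3 is left out, and its interval narrows, while the points of the other genes stay within 1 of 0.

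Spontaneous recovery was addressed by REG against LFG. Pdk4 was lower in REG than in LFG 1 and LFG 2 by about an order of magnitude, and Hadha was higher in REG in 3 of 3 libraries, while Ppara, Cpt1a, Cpt2, Ehhadh and Acadm overlapped. Pdk4 had a log2 fold change of -3.10 (SE 1.00, interval -5.48 to -0.72), or 0.117 of the LFG level, with an unadjusted p of 0.0178 and an adjusted p of 0.388 by edgeR. Hadha averaged 373 ± 7.38 CPM in REG and 302 ± 57.9 in LFG (SD, n = 3), a log2 fold change of 0.32 (SE 0.22, interval -0.215 to 0.85, adjusted p = 0.613 by edgeR) that was 0.205 without LFG 3. The log2 fold changes of Ppara (0.25), Cpt1a (0.20), Acadm (0.077), Ehhadh (-0.053) and Cpt2 (-0.17) had intervals that all contained 0, and that of Ppara turned to -0.19 without REG 3. Without LFG 3 they were 0.092, 0.35, 0.19, -0.195 and 0.036, again with intervals that contained 0.

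By edgeR 0 of 7 passed, where 0.0% of all 12517 genes did, and 1 of 7 reached an unadjusted p under 0.05, against 11.3% of all genes. The groups did not overlap for 1 of 7, Hadha, against 19.0% of all genes. DESeq2 and limma voom each passed 1 gene, Pdk4, at an adjusted p of 0.0331 (DESeq2) and 0.0177 (limma voom), where 1.91% and 10.3% of all genes passed. The limma voom fit weighted the libraries by quality, and the weight of LFG 3 is not given here. Without LFG 3 edgeR also passed 1, Pdk4 at -3.62 (SE 0.25, interval -4.19 to -3.05, adjusted p = 0.00855), where 10.7% of all genes passed. Its adjusted p over all fits ran from 0.00855 to 0.928, the latter without REG 2, and it missed an unadjusted p of 0.05 without REG 1, 2 or 3 or LFG 2. The median of the 7 was 0.077 against -0.068 for all genes.

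Several marker sums differed along with Pdk4 in these libraries. The stellate cell sum was high where Pdk4 was high, in LFG 1 and LFG 2, and lowest in LFG 3. All 10 of these markers tested were lower in REG than in LFG (median -0.58, 0 at p under 0.05), and without LFG 3 all 11 were (median -1.15, 10 at p under 0.05, where 37.3% of all genes were). The macrophage sum was 1720, 1291 and 174 CPM in LFG 1, 2 and 3, and 1641, 767 and 510 in REG 1, 2 and 3. In REG 6 of 10 macrophage markers were lower (median -0.19, 0 at p under 0.05), and 8 of 10 without LFG 3 (median -0.69, 2 at p under 0.05). The cholangiocyte sum also fell from LFG 1 to LFG 3, at 194.8, 149.0 and 50.6 CPM, with 69.3 to 75.5 in REG. Most of it was Spp1, at 172.8, 124.4 and 41.1 CPM in LFG 1, 2 and 3 and 54.0 to 59.3 in REG. Epcam and Cldn7 fell in that order too, Krt19 and Krt7 were highest in LFG 2, and Sox9 was level within LFG (6.36, 6.82 and 6.35 CPM). Of these markers 5 of 6 were lower in REG (median -0.69, 0 at p under 0.05, and -1.05 with 3 at p under 0.05 without LFG 3). The 6 genes of fasting gluconeogenesis summed to 4244, 11040 and 8085 CPM in LFG 1, 2 and 3, against 2506 to 3791 in REG. Of these 6, 5 were lower in REG than in LFG at an unadjusted p under 0.05 (Pck1, G6pc, Igfbp1, Tat and Ppargc1a, median of the list -1.45). LFG 3 was high in that sum, most of it Pck1 (4476 CPM) and Tat (2931 CPM), and low in Pdk4. It was the lowest of LFG in 2 of the 6, Ppargc1a (46.6, 43.7 and 8.40 CPM in LFG 1, 2 and 3) and Igfbp1 (289, 1842 and 95.8 CPM). The glucocorticoid-induced genes summed to 677 to 932 CPM in LFG and 303 to 437 in REG, with 6 of 6 lower in REG and 3 at p under 0.05. Of 12 genes of the circadian clock, 4 had a p under 0.05 between REG and LFG, Per1, Clock and Cry1 lower and Per3 higher. Without LFG 3, 9 of 12 tested had a p under 0.05, where 37.3% of all genes did. Higher in REG were 8 of 9 periportal markers (median 0.41, 3 at p under 0.05), 9 of 10 lymphocyte markers (median 0.70, 1 at p under 0.05), 7 of 8 genes induced by insulin and feeding (median 0.71, 1 at p under 0.05) and 6 of 7 endothelial markers (median 0.70, 1 at p under 0.05). Without LFG 3 these medians were 0.70 (7 of 9), 0.39 (7 of 10), 0.84 (8 of 8) and 0.61 (4 of 7). The gluconeogenesis median was then -1.59 (5 of 6 lower, 5 at p under 0.05) and the glucocorticoid median -1.102 (6 of 6 lower, 6 at p under 0.05). Hepatocyte and pericentral markers had medians of -0.017 and 0.062 with LFG 3, and 0.925 (8 of 10 higher, 7 at p under 0.05) and 1.384 (8 of 8 higher, 5 at p under 0.05) without it. The part of each in the level of Pdk4 and of the other genes compared between REG and LFG was not tested.

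**Figure D4:**
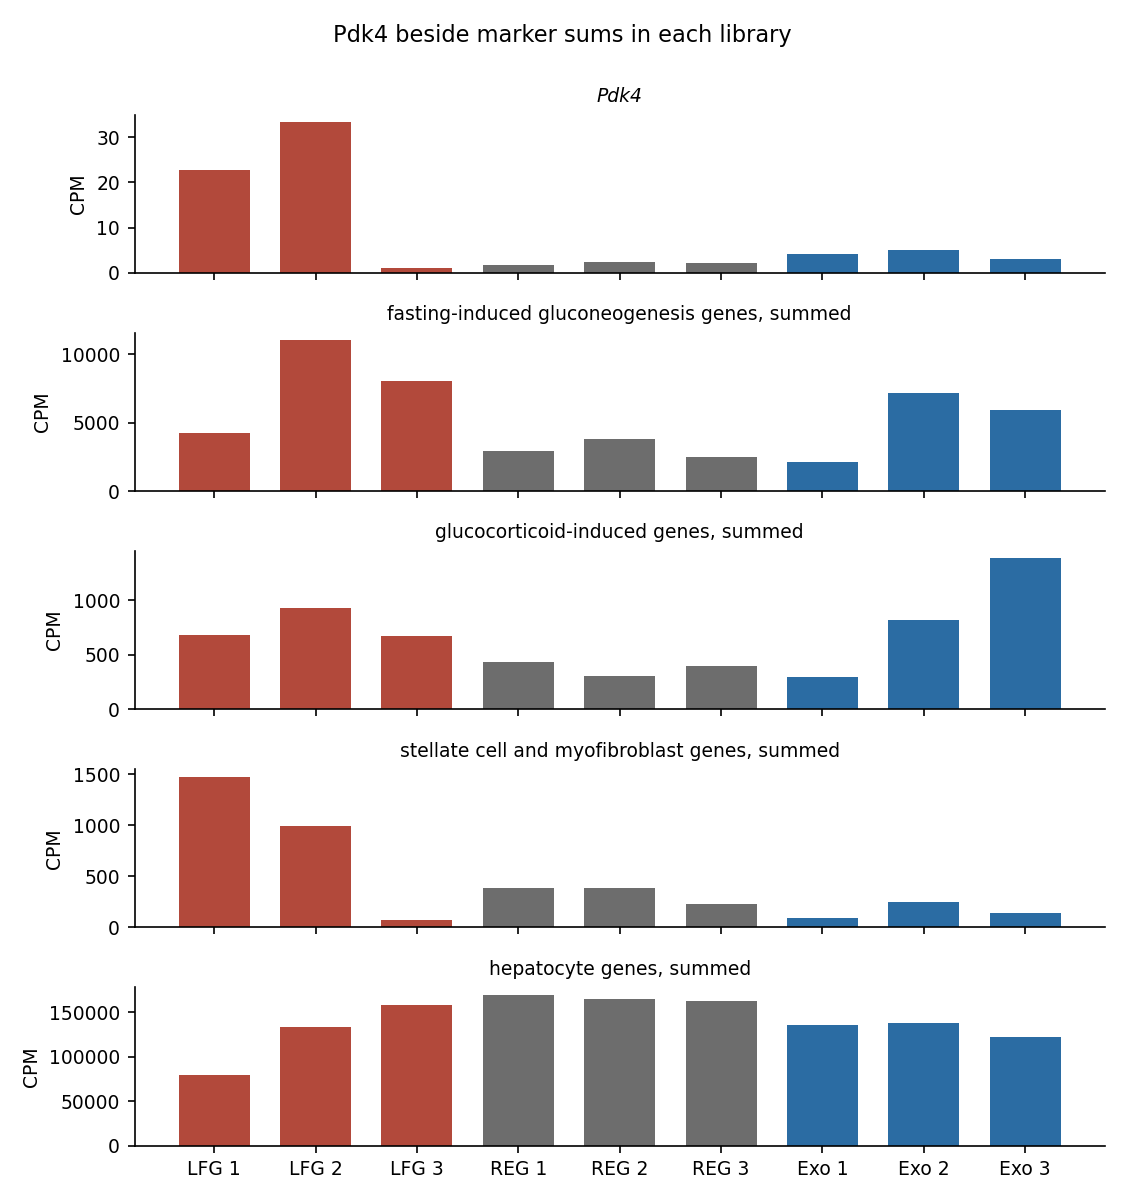
CPM of Pdk4 and summed CPM of 4 marker lists (vertical axes from 0) in each library, coloured by group (Exo, hADMSCs-Exo). Pdk4 and the stellate cell sum are both highest in LFG 1 and LFG 2 and lowest in LFG 3, whereas the fasting sum of LFG 3, 8085 CPM, is above that of LFG 1, 4244 CPM.

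The rest of the pathway was followed with 107 other genes in 10 lists. Between hADMSCs-Exo and REG, 53 of 104 tested were higher and 51 lower. By edgeR 0 passed the thresholds, 20 had an unadjusted p under 0.05 (12 higher, 8 lower) against 10.0% of all genes, and DESeq2 and limma voom also passed 0. Among partners and coregulators of the receptor 14 of 16 were higher (median 0.31), 4 of them at p under 0.05. They included Nrip1, a corepressor, at 0.715 (SE 0.16, adjusted p = 0.358 by edgeR; 8.13, 7.52 and 8.49 CPM in REG against 13.0, 14.6 and 12.2), and Hnf4a, a master regulator of hepatocytes, at 0.43 (adjusted p = 0.431 by edgeR).

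In the carnitine list 3 of 5 genes tested were higher and 2 lower in hADMSCs-Exo than in REG, with 2 higher and 1 lower at an unadjusted p under 0.05. Slc22a5, the plasma membrane carnitine transporter, had 19.7, 13.7 and 19.2 CPM in REG and 30.2, 29.1 and 30.7 in hADMSCs-Exo. Its log2 fold change was 0.77 (SE 0.18, adjusted p = 0.358 by edgeR and 0.0335 by DESeq2). Slc25a20, which carries acylcarnitines across the inner membrane, had 0.35 (adjusted p = 0.490), and both genes were higher in 3 of 3 libraries. The lower one was Acacb, which makes the malonyl-CoA that inhibits CPT1A, at -0.73 (adjusted p = 0.463 by edgeR), with overlapping groups and named after its values were seen.

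For mitochondrial oxidation 10 of 13 genes were lower in hADMSCs-Exo than in REG (median -0.195), with 1 at p under 0.05, Etfb, which was higher (0.90, adjusted p = 0.438) at only 1.01 to 2.58 CPM in these groups. Of 15 peroxisomal genes 7 were higher and 8 lower (median -0.006), so Ehhadh stood lower than the median of that list. Cyp4a14, an omega-hydroxylase, had -0.85 (interval -2.12 to 0.43), with overlapping groups, and -0.146 without REG 1 to -1.36 without hADMSCs-Exo 1. Of the 6 genes of its list 3 were higher and 3 lower. Cyp4a12a (1.438) and Cyp4a12b (1.476) were higher without overlap, and Cyp4a32 (0.83) was the 1 with an unadjusted p under 0.05, with adjusted p of 0.543, 0.590 and 0.407 by edgeR. These were named after their values were seen. Acat1, the thiolase of the ketogenesis list, was lower at -0.37 (adjusted p = 0.436), and Fabp1, the liver fatty acid binding protein, at -0.56 (adjusted p = 0.407), each in 3 of 3 libraries.

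Of the FGF21 axis, the coreceptor gene Klb had -0.465 (adjusted p = 0.463) and the stress factor gene Ddit3 0.95 (adjusted p = 0.407) in hADMSCs-Exo against REG, again without overlap. In the uptake list 7 of 13 were higher (median 0.001), in the carnitine list 3 of 5 (0.28), in ketogenesis 1 of 5 (-0.24), in omega-hydroxylation 3 of 6 (0.235), among other targets of PPAR-alpha 9 of 12 (0.29), in pyruvate dehydrogenase control 3 of 10 (-0.205) and among FGF21 receptors and stress regulators 3 of 9 (-0.13).

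Against LFG, 54 of 105 other genes were higher and 51 lower in hADMSCs-Exo, 5 had an unadjusted p under 0.05 (3 higher, 2 lower) against 5.98% of all genes, and 0 passed by edgeR. DESeq2 passed 1, Cyp4a31, limma voom 0, and edgeR without LFG 3 passed 6 (4 higher, 2 lower), a share of the 105 like the 5.97% of all genes. Pex19, a peroxisome assembly factor, had 0.42, and G0s2, an inhibitor of fat breakdown, 1.85 (adjusted p = 0.805 for each by edgeR), or 0.54 and 2.52 without LFG 3 (adjusted p = 0.0835 and 0.0746 by edgeR), with all hADMSCs-Exo libraries above all LFG libraries. Cyp4a31 had 56.8, 49.1 and 10.8 CPM in LFG and 7.40, 3.25 and 3.65 in hADMSCs-Exo, a log2 fold change of -3.04 (SE 0.67, adjusted p = 0.805 by edgeR and 0.00220 by DESeq2), or -3.46 without LFG 3 (adjusted p = 0.0100 by edgeR). Cyp4a genes are close copies of one another, so its reads may be shared among them. Cyp4a14 had 0.47 (interval -0.50 to 1.44), and its groups overlapped.

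In REG against LFG, 54 of 105 were higher and 51 lower, 19 had an unadjusted p under 0.05 (9 higher, 10 lower) against 11.3% of all genes, and 0 passed by edgeR, where DESeq2 passed 2, limma voom 14 and edgeR without LFG 3 14, beside 1.91%, 10.3% and 10.7% of all genes. Among the relatives of Pdk4, Pdk2 had 0.79 (adjusted p = 0.371; 55.5, 71.7 and 91.3 CPM in LFG against 109.7, 143 and 123) and Pdk1 1.07 (adjusted p = 0.404), or 1.03 and 1.22 without LFG 3 (adjusted p = 0.0222 and 0.0757 by edgeR), both on the side opposite to Pdk4. Pdk3, named after its values were seen, was on the side of Pdk4 at -1.44 (adjusted p = 0.665) and at -1.98 without LFG 3 (adjusted p = 0.0474 by edgeR), with 6.19, 2.07 and 0 CPM in LFG and 0.637 to 1.26 in REG. Angptl4, a target of PPAR-alpha that inhibits lipoprotein lipase, had 134, 136 and 257 CPM in LFG and 67.0, 46.1 and 68.3 in REG, a log2 fold change of -1.53 (SE 0.34, adjusted p = 0.275 by edgeR and 0.00393 by DESeq2) that was -1.11 without LFG 3 (adjusted p = 0.0178 by edgeR). Cidec, a lipid droplet gene, had -1.47 (adjusted p = 0.345), or -1.42 without LFG 3 (adjusted p = 0.0542 by edgeR). The sum of the adipocyte markers was likewise higher in LFG than in REG, and its part in the value of Cidec was not tested. Among mitochondrial genes 10 of 13 were higher (median 0.18), with Echs1 at 0.65 (adjusted p = 0.388) and Acadvl at 0.58 (adjusted p = 0.430), on the side of Hadha. Without LFG 3, 11 of 13 were higher (median 0.52, 8 at p under 0.05, where 37.3% of all genes and 38 higher and 20 lower of the 105 other pathway genes were), Echs1 at 0.75 and Acadvl at 0.43.

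Over all 10 lists 17 genes were higher and 10 lower in REG without overlap among the 105 tested, where 19.0% of all genes did not overlap, and by the naming rule those not yet given included Acsl5, an acyl-CoA synthetase (0.53), which was higher, and the coactivator Ncoa1 (-0.52), Cpt1c (-1.26) and Etfb (-1.64, and -0.66 without LFG 3), all lower. Their adjusted p by edgeR ran from 0.407 for Acsl5 to 0.437 for Ncoa1. Without LFG 3, Acsl5 was at 0.60, Ncoa1 at -0.63 and Cpt1c at -1.43, with adjusted p of 0.0668, 0.0467 and 0.0796 by edgeR. In the FGF21 list Klb (0.82) and Fgfr1 (0.785) were higher and Ddit3 (-1.44, and -0.90 without LFG 3) was lower, with adjusted p of 0.353, 0.388 and 0.338 by edgeR. Without LFG 3, Klb was at 0.71 and Fgfr1 at 0.63. Cyp4a14 had 1.33 (adjusted p = 0.432), with overlapping groups, and 0.68 without REG 1 and 1.507 without LFG 3.

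**Figure D5:**
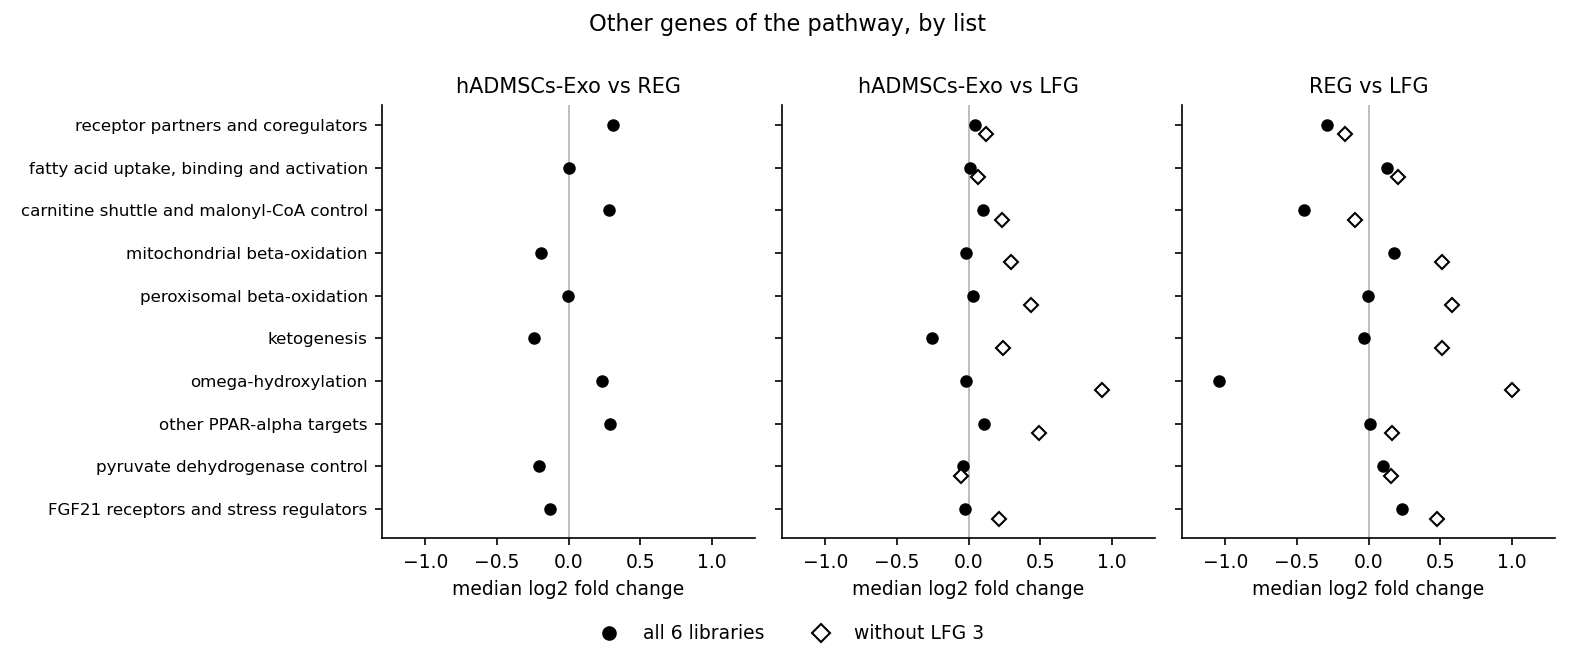
Median log2 fold change (horizontal axis) of the other pathway genes in each of 10 lists and 3 comparisons; filled circles use all 6 libraries and open diamonds leave out LFG 3. Leaving out LFG 3 shifts most lists upward against LFG, and omega-hydroxylation from -1.05 to 1.00 in REG against LFG.

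The lists against LFG depended on LFG 3. For REG the median of the mitochondrial list was 0.18 with all libraries and 0.52 without LFG 3, that of the peroxisomal list -0.002 and 0.58, that of ketogenesis -0.033 and 0.51, and that of omega-hydroxylation -1.05 and 1.00. For hADMSCs-Exo the same lists went from -0.015 (6 of 13 higher) to 0.300 (12 of 13 higher), from 0.031 to 0.435, from -0.25 to 0.24 and from -0.015 to 0.93. Medians of all tested genes were -0.068 for REG and -0.059 for hADMSCs-Exo with all libraries, and -0.005 and 0.004 without LFG 3. The comparisons with LFG share its 3 libraries, so their values are not independent of each other.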

How the data were processed

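RNA-seq of 9 mouse liver samples was analysed from the table of read counts per gene that the authors deposited, which are raw counts without normalization. The FPKM that the authors deposited beside them follow from these counts, gene length and library totals, with a largest relative deviation of 9.19e-07, and served to rank genes only. The submitters' processing notes name cutadapt 1.15, HISAT2 2.0.5, HTSeq 0.9.1, DESeq 1.30.0 and GRCm38, without roles, and the study's methods Trizol, a NEBNext Ultra kit and an Illumina sequencer. Strand use is not given in the sources used here. GENCODE for GRCm38 lists 21817 of the 21936 genes. Total counts were 13837445 to 19840917 per library, and counting error weighs most on Fgf21, at 0 to 22 counts, and next on Pdk4.

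Differences came from two-sided quasi-likelihood fits in edgeR 4.0.16 (R 4.3.3) to the 6 libraries of a pair of groups, with TMM scaling and low genes removed by filterByExpr, and the Benjamini-Hochberg adjustment ran over all genes that remained. Log2 CPM used a prior count of 2. DESeq2 1.42.0, limma 3.58.1 (voom with quality weights), RLE size factors, other filters, all 9 libraries in 1 fit, the replicate number as a block and each library left out in turn were alternatives. Tables and plots used Python 3.11.15, pandas 2.3.3, scipy 1.17.1 and matplotlib 3.10.9, and the test was tested on simulated data. The members, gene lists, alternatives and promoter motifs were chosen with earlier results of these data known. Named are the 8 members, Cyp4a14, and per list up to 2 higher and 2 lower genes of smallest p among those with an unadjusted p under 0.05 and groups that do not overlap, and the 2 nearest patterns of each member. Some genes that this rule names are not reported here. Genes of the marker lists, a few others marked as such and promoters shown were named after their values were seen. Columns headed MSC_E were read as hADMSCs-Exo from the treatment label.

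Replicate numbers 1 to 3 are shared by the groups. As a check, the correlation across genes of same-numbered libraries, after subtracting group means, was 0.101, 0.308 and 0.180 for replicates 1, 2 and 3 in hADMSCs-Exo with LFG. Each exceeds 0.1, so these were treated as pairs, on no other ground. In hADMSCs-Exo with REG it was 0.159, 0.00938 and 0.0336, and in REG with LFG 0.415, -0.202 and 0.305, which were not.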

Additional observations from a re-analysis of the deposited data

How the results depend on the processing

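No alternative but leaving out LFG 3 (Pdk4 against LFG) and, for REG against LFG, DESeq2 and limma voom (Pdk4) moved one of the 8 genes past the threshold. In hADMSCs-Exo against REG, 1 gene of the table differed by edgeR, 67 by DESeq2, 3 by limma voom, 4 without the filter, 0 with all 9 libraries in 1 fit, 266 by unadjusted p with the fold limit, and 0 to 1 with a library left out. For hADMSCs-Exo against LFG the counts were 0, 60 (DESeq2), 1 (limma voom), 1 (all 9 libraries), 374 (unadjusted p) and 0 to 773 (a library left out, 773 without LFG 3), and for REG against LFG 0, 239 (DESeq2), 1285 (limma voom), 537 (unadjusted p) and 0 to 1391 (1391 without LFG 3). Of the members, 2 had an unadjusted p under 0.05 for hADMSCs-Exo against REG in the main fit, beside 10.0% of all genes. With all 9 libraries in 1 fit 1 did, and with a library left out 2 to 4 did, the 4 without REG 3. For hADMSCs-Exo against LFG, 1 did, 3 by DESeq2, limma voom, all 9 libraries or the replicate block, 2 without the filter and 0 to 3 with a library left out, it being 0 without hADMSCs-Exo 1, hADMSCs-Exo 2, LFG 1 or LFG 2. For REG against LFG, 1 did, 0 with the replicate block (Pdk4 at -2.43) and 0 to 1 with a library left out, it being 0 without any 1 of the REG libraries or LFG 2. The block and limma voom each gave 3 for hADMSCs-Exo against REG. The 10.0% above belongs to the main fit. No such share is given here for any alternative fit to this pair of groups, so these member counts have no background to compare with. The cause of these shifts was not tested.

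Values near 0 turned sign, none with a called change: against LFG in hADMSCs-Exo, Acadm (-0.007 with 10 counts in every library, and -0.06 to 0.101 with a library left out), Hadha (-0.009 by limma voom, -0.052 without LFG 3, 0.203 at the highest), Cpt2 (-0.108 without LFG 2, -0.017 without hADMSCs-Exo 1, 0.257 at the highest) and Cyp4a14 (-0.017 without hADMSCs-Exo 1, 0.776 at the highest). In REG against LFG these were Ppara (-0.167 by limma voom, -0.191 without REG 3, 0.471 at the highest), Cpt2 (0.156 by limma voom, 0.036 without LFG 3, -0.35 at the lowest) and Ehhadh (0.066 without REG 1, 0.058 without LFG 1, 0.024 without LFG 2, -0.195 at the lowest). Fgf21, under the filter with all 6 libraries, turned sign among the 6 fits that held it, from -0.062 to 0.657 against REG and from -0.904 to 0.197 against LFG in hADMSCs-Exo. It rests on 0 to 22 counts a library. Groups of 3 samples limit all p-values, and a library left out leaves a pair whose spread is taken to resemble that of the other group.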
